A study of Rattus norvegicus with 20 samples.

Results

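The comparison described here set the liver messenger RNAs of rats that ate a diet with a small share of high-isoflavone soybean protein against those of rats that ate casein. It used the 5 arrays of the 3:1 high-isoflavone diet minus the 5 arrays of the casein diet, which are 10 of the 20 arrays in the series. Its members were all probe sets that were no controls and had values, 27702 of the 31099 probe sets on the array. All 20 rats were male Sprague-Dawley rats, obtained at 4 weeks of age, adapted for 5 days on a commercial diet, then fed a test diet for 21 days with free access to food and water. The control diet had 200 g/kg of casein, a milk protein, as its protein source. In the 3:1 diet, protein came from casein and the soybean Yukipirika (high-isoflavone) in proportions of 3 to 1. In the 1:1 diet casein and Yukipirika gave equal parts, and in the conventional soybean diet casein and the cultivar Fukuyutaka gave equal parts. The labels give 7 rats for the casein, 3:1 and conventional soybean diets and 8 for the 1:1 diet, and 5 rats of average food intake were taken from each diet for the arrays. Array titles were matched to these diets by their wording. No source used here states the isoflavone content of the diets. Soybean protein, isoflavones and any other soybean component fed differ together between the 3:1 and casein diets, so their parts cannot be told apart. The question was which liver messenger RNAs differ when a small part of the dietary casein is replaced by this soybean.

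The liver makes fatty acids from acetyl-CoA with enzymes that draw their reducing power from NADPH, and makes cholesterol through the mevalonate pathway. The SREBP transcription factors drive the genes of both routes, and insulin and a carbohydrate-rich diet raise fatty acid synthesis through SREBP1c and ChREBP. Soybean protein is known to lower blood lipids and hepatic lipogenic gene expression in rodents relative to casein. Isoflavones such as genistein and daidzein are plant polyphenols that bind estrogen receptors, and the liver conjugates them with glucuronic acid and sulfate.

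Signals were on the log2 scale, each array was a separate rat (n = 5 per diet), and precision is limited by how many arrays there were. The medians of the arrays lay between 2.43 and 2.49 on casein and between 2.43 and 2.52 on the 3:1 diet. Alb, the gene of albumin, the main secreted protein of hepatocytes, read 9.91 to 10.26 on casein and 10.12 to 10.32 on the 3:1 diet, and 0 of 7 measured hepatocyte markers differed at an unadjusted p under 0.05. The lowest signal was raised on 1 array of each diet: it was 0.134 log10 in casein replicate 5 and 0.142 log10 in 3:1 replicate 1, while no other array of the remaining 18 exceeded -0.265. RNA integrity was read from beta-actin, whose 3′ signal exceeded its 5′ signal by 1.45 ± 0.107 on casein and 1.61 ± 0.304 on the 3:1 diet (log2, mean ± SD). The highest of these was 2.13 in 3:1 replicate 1, the array with the raised lowest signal, and the other 3:1 arrays read 1.35 to 1.56. For Gapdh the same measure was 0.924 ± 0.0808 on casein and 0.929 ± 0.0528 on the 3:1 diet. A further array stood apart in fat synthesis, replicate 4 of the 3:1 diet, whose values are given with those genes. In whole liver, fewer cells of a type and less RNA per cell cannot be told apart.

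Few messenger RNAs were called between the 3:1 diet and casein in the test over all probe sets. With limma and Benjamini-Hochberg adjustment over the 27702 probe sets, 11 were called at an adjusted p under 0.05, which is 0.0397% of those tested. Of these, 6 rose and 5 fell. The split was 2 and 5 after quantile normalization and 1 and 5 after centring and scaling of the arrays. The called genes were Cox7b2, Cox7b, Fabp2, Wfdc21 and a probe set of Eprs1 among those that fell, and Ddah1, Slc6a13, Car3, Car8 and 2 probe sets with no listed gene among those that rose. With each gene represented by its probe set of highest mean, 8 of 13462 genes were called, or 0.0594%. The highest and lowest values of the 2 diets did not overlap for 10 of the 11 called probe sets, against 501 of all 27702 (1.81%). The calls were made on these same values, so this separation is no separate support for them. At an unadjusted p under 0.05 there were 2249 probe sets, 1339 higher and 910 lower.

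The other soybean diets were set against the same 5 casein rats, so a casein rat with an unusual value moves all of these comparisons, and their values are given only side by side. With genes as the unit, 340 of 13462 (2.53%) were called on the 1:1 diet and 251 (1.86%) on the conventional soybean diet. Leaving out single arrays moved the count of 11 to between 1 and 26. It was 1 without casein replicate 5, 2 without 3:1 replicate 4, 3 without 3:1 replicate 3, 4 without casein replicate 2 or 4, 7 without 3:1 replicate 1 and 26 without casein replicate 1. Without both arrays of higher floor, 4 were called, of which 2 were among the 11.

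**Figure D1:**
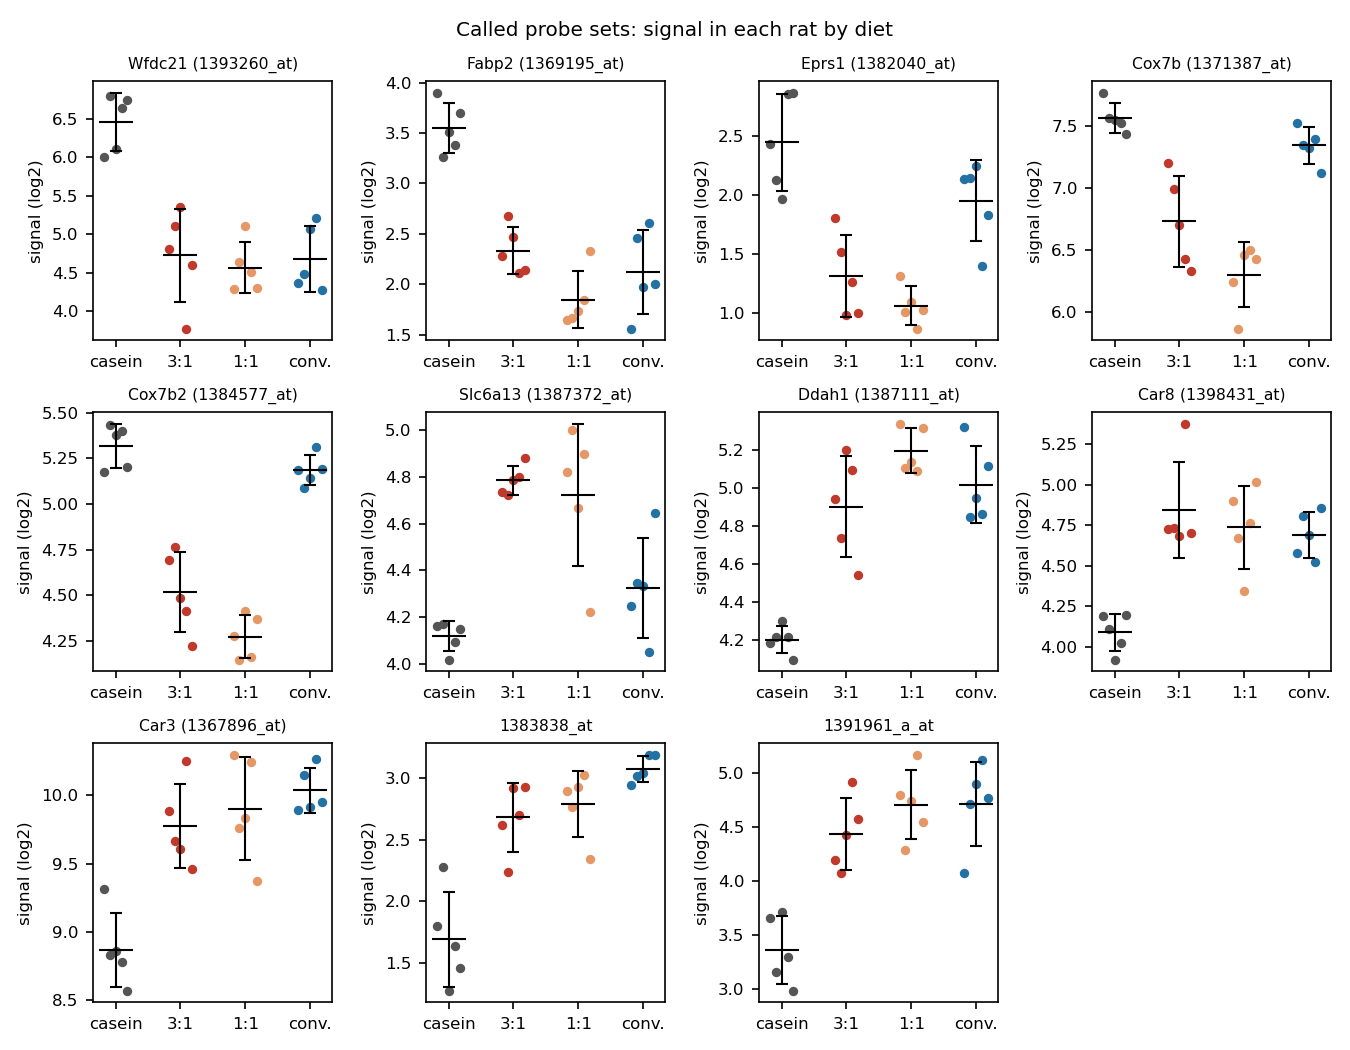
Signal (log2) of the 11 called probe sets in each rat on the casein, 3:1, 1:1 and conventional soybean (conv.) diets, with points for rats, long bars for means and whiskers for the SD (n = 5); each panel has its own axis. For Cox7b2 the conventional soybean rats sit beside the casein rats and apart from both groups on high-isoflavone soybean, while Wfdc21 and Fabp2 are low on all 3 soybean diets.

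The promoters of the 4 genes whose representative probe set fell are shown because these genes moved together in 1 comparison and include a pair of related genes. Sequences are from RefSeq (build GRCr8, all on the forward strand), run from 250 bases before to 50 bases after the start of the gene, and are written 5′ to 3′. Capitals mark every match on either strand to the motifs listed after the sequences. The pair of cytochrome oxidase genes comes first, then the fatty acid binding protein and Wfdc21.
Cox7b: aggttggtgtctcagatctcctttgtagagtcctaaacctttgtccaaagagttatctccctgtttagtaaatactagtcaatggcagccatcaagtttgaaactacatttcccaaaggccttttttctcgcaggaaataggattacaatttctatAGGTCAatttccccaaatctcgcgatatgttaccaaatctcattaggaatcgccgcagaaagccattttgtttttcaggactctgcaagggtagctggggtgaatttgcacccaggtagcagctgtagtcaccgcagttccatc
Cox7b2: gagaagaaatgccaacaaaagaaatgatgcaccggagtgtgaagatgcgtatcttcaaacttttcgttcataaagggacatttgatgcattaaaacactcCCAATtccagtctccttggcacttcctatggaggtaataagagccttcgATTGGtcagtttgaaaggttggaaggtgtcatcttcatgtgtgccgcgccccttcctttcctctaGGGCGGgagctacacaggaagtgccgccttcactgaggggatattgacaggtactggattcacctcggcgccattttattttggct
Fabp2: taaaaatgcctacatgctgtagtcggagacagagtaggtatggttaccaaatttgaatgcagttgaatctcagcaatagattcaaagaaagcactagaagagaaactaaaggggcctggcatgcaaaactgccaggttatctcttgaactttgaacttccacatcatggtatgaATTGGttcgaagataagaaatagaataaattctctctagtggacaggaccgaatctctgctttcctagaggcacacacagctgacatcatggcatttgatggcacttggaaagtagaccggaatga
Wfdc21: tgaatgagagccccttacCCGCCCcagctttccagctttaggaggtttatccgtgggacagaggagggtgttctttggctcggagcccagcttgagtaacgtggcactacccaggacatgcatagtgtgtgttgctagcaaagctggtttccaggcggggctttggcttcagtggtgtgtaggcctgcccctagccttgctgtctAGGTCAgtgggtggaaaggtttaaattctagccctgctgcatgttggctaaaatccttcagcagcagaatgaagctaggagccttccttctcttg

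The Cox7b promoter lies at chrX:75148786-75149085, that of Cox7b2 at chr14:37046831-37047130, that of Fabp2 at chr2:213724379-213724678 and that of Wfdc21 at chr10:69125086-69125385. Of the 9 called genes with a symbol, 6 had a promoter in the table. Searched on both strands, CCAAT occurs in 37.5% of all 33365 promoters of this length, GGGCGG in 33.1%, AGGTCA, the core of nuclear receptor sites, in 16.2%, TATAAA in 14.2%, CCGGAAG in 8.77% and CACGTG in 6.43%. Cox7b holds 1 AGGTCA at -94 to -89, counted from the gene start. Cox7b2 holds CCAAT on the forward strand at -150 to -146 and on the opposite strand at -101 to -97, and GGGCGG at -36 to -31. Fabp2 holds CCAAT on the opposite strand at -76 to -72. Wfdc21 holds GGGCGG on the opposite strand at -232 to -227 and AGGTCA at -45 to -40. No motif of the 6 is shared by all 4 promoters.

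Cox7b and Cox7b2 both fell on the 3:1 diet, and neither was called on the conventional soybean diet. Cox7b encodes a small subunit of cytochrome c oxidase, the last complex of the respiratory chain, and Cox7b2 is its close paralog. Cox7b2 (probe set 1384577_at) read 5.17, 5.43, 5.38, 5.40 and 5.20 in the 5 casein rats and 4.69, 4.76, 4.48, 4.42 and 4.22 in the 5 rats on the 3:1 diet. Every 3:1 rat lay below every casein rat. It fell by 0.80 (SE 0.10, adjusted p = 0.00143), and this was the only call that held in all 18 settings tried, with an adjusted p of at most 0.0314. On the 1:1 diet its values were 4.28, 4.15, 4.41, 4.16 and 4.37, overlapping the lower part of the 3:1 range, and on conventional soybean they were 5.19, 5.09, 5.14, 5.31 and 5.19, within or beside the casein range. Against casein the 1:1 diet differed by -1.04 and conventional soybean by -0.13 (adjusted p = 0.51).

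Cox7b (1371387_at) read 7.77, 7.56, 7.55, 7.53 and 7.44 on casein and 7.20, 6.99, 6.70, 6.43 and 6.33 on the 3:1 diet, again with no overlap. It fell by 0.84 (SE 0.14, adjusted p = 0.0367). This call was lost in 10 of 18 settings, with an adjusted p of 0.101 without casein replicate 5 and 0.1 without 3:1 replicate 4. The difference was -1.27 on the 1:1 diet and -0.22 on conventional soybean (adjusted p = 0.439). Within the 3:1 group both genes had their lowest value in replicate 5. The probe sets of these near copies may read each other's messenger RNA, which was not tested.

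Fabp2 and Wfdc21 also fell on the 3:1 diet, and both lay below casein on the other soybean diets. Fabp2 is the intestinal type of fatty acid binding protein, which carries fatty acids in the cytosol. Its probe set (1369195_at) was of middling brightness, at the 49.4th percentile of mean signal. It read 3.89, 3.27, 3.51, 3.38 and 3.70 on casein and 2.28, 2.67, 2.47, 2.11 and 2.15 on the 3:1 diet, so the highest 3:1 rat stayed below the lowest casein rat. Fabp2 fell by 1.21 (SE 0.18, adjusted p = 0.0106). The 1:1 diet differed from casein by -1.70 and the conventional soybean diet by -1.43. Without casein replicate 5 its adjusted p was 0.0601, without 3:1 replicate 4 it was 0.0637 and without both arrays of higher floor 0.0945.

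Wfdc21, which encodes a small secreted protein with a whey acidic protein domain, showed the largest called difference. It read 6.001, 6.80, 6.10, 6.63 and 6.74 on casein and 4.81, 5.11, 5.35, 3.77 and 4.60 on the 3:1 diet, with no overlap and the lowest value in 3:1 replicate 4. It fell by 1.73 (SE 0.25, adjusted p = 0.0106). Without 3:1 replicate 4 the adjusted p was 0.0215, without casein replicate 5 it was 0.0601, and without both arrays of higher floor 0.0776. The call ended in 3 of 18 settings. The differences on the 1:1 and conventional soybean diets were -1.89 and -1.78.

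The call for Eprs1, the glutamyl-prolyl-tRNA synthetase, came from 1 dim probe set of 4. That probe set (1382040_at, at the 19.6th percentile of mean signal) read 2.44, 2.12, 1.96, 2.85 and 2.86 on casein and 1.80, 1.51, 0.99, 1.26 and 1.003 on the 3:1 diet and fell by 1.13 (SE 0.20, adjusted p = 0.0385). The call ended in 11 of 17 settings, 7 of them among the 10 omissions of single arrays, with an adjusted p of up to 0.151. The brightest probe set of the gene differed by -0.14 (adjusted p = 0.78) and the remaining ones by -0.06 and -0.74, neither called. The level of the gene as a whole is therefore not settled by these values.

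Among the risen genes were 2 carbonic anhydrase genes. Car3, a cytosolic carbonic anhydrase abundant in liver, muscle and fat, lay at the 99.9th percentile of mean signal. Its probe set 1367896_at read 9.31, 8.83, 8.86, 8.78 and 8.57 on casein and 9.88, 9.67, 9.61, 10.25 and 9.46 on the 3:1 diet, with no overlap. Car3 rose 1.87-fold (0.90 on the log2 scale, SE 0.16, adjusted p = 0.0491), with 1.03 on the 1:1 and 1.16 on the conventional soybean diet. The other probe set, 1386977_at, differed by 1.16 (adjusted p = 0.112) and did not overlap either. The call of the former ended in 14 of 18 settings, with an adjusted p of 0.151 without casein replicate 5, 0.292 without both arrays of higher floor and 0.267 after centring and scaling. Since muscle and fat also express Car3, their markers were read beside it: all 8 skeletal muscle markers lay above 0 in the difference, with a median of 0.32, and 0 of 8 reached an unadjusted p under 0.05. The mean of the 8 ranged from 2.27 to 2.92 on casein and from 1.70 to 3.76 on the 3:1 diet, and their part in the Car3 difference was not tested. Of 3 measured adipose markers, 1 lay above 0.

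Car8, a carbonic anhydrase relative that lacks the enzyme activity, read 4.19, 4.11, 3.92, 4.02 and 4.19 on casein and 4.73, 4.73, 4.68, 5.37 and 4.70 on the 3:1 diet. The groups did not overlap, and replicate 4 stood far above the other 3:1 rats. Car8 rose 1.69-fold (0.76, SE 0.13, adjusted p = 0.0385), and without replicate 4 the adjusted p was 0.1. The call ended in 15 of 18 settings. On the 1:1 and conventional soybean diets it differed from casein by 0.65 and 0.60.

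Ddah1 breaks down asymmetric dimethylarginine, an inhibitor of nitric oxide synthases. It read 4.18, 4.22, 4.30, 4.22 and 4.10 on casein and 4.94, 4.74, 5.20, 5.09 and 4.54 on the 3:1 diet, all 5 above the highest casein rat. Ddah1 rose 1.62-fold (0.70, SE 0.11, adjusted p = 0.0317), against 0.99 on the 1:1 and 0.81 on the conventional soybean diet. Its call ended in 11 of 18 settings, among them without casein replicate 5 (adjusted p = 0.101). Slc6a13, a transporter of GABA and taurine, read 4.16, 4.17, 4.02, 4.10 and 4.15 on casein and 4.73, 4.72, 4.79, 4.80 and 4.88 on the 3:1 diet, both tight groups far apart. It rose 1.58-fold (0.66, SE 0.12, adjusted p = 0.0491). The fit pools the spread over all 4 diets, and the 1:1 rats ranged from 4.22 to 4.997 and the conventional soybean rats from 4.05 to 4.65. The call ended in 15 of 18 settings, with an adjusted p of up to 0.195.

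The 2 called probe sets with no gene listed also rose. Probe set 1391961_a_at read 3.66, 3.16, 3.71, 3.296 and 2.99 on casein and 4.20, 4.07, 4.42, 4.92 and 4.57 on the 3:1 diet, without overlap (1.07, SE 0.20, adjusted p = 0.0491). Probe set 1383838_at read 1.80, 2.28, 1.27, 1.64 and 1.46 and 2.62, 2.24, 2.92, 2.71 and 2.93, where the lowest 3:1 rat lay below the highest casein rat (0.99, SE 0.17, adjusted p = 0.0367). Their calls ended in 12 and 11 of 18 settings.

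The threshold cut through a run of genes with like values. Just outside it were Ppp1r16a, a regulatory subunit of a protein phosphatase (0.88, adjusted p = 0.0515), and Trappc2b, related to a subunit of the vesicle tethering complex TRAPP (-1.11, adjusted p = 0.0515). The other probe set of Ppp1r16a differed by 0.17. Hal, the histidine ammonia-lyase that starts histidine breakdown, read 4.87, 4.75, 4.89, 4.65 and 4.86 on casein and 5.67, 5.59, 5.38, 5.29 and 5.56 on the 3:1 diet, with no overlap (0.69, SE 0.13, adjusted p = 0.0616). Atp5mk, a small subunit of the ATP synthase, read 6.91, 6.83, 6.74, 6.79 and 6.76 and 6.42, 6.47, 6.42, 6.16 and 5.93 (-0.53, SE 0.10, adjusted p = 0.0616), also with no overlap. Sub1, a transcription coactivator, differed by -0.96 (adjusted p = 0.0617), and its other probe set by -0.16. Trappc2b, Atp5mk and Sub1, like Cox7b and Cox7b2, had smaller differences on conventional soybean, at -0.17, -0.25 and -0.34, than on the 1:1 diet, at -1.50, -0.80 and -1.60. The 3:1 diet differed directly from conventional soybean by -0.94 for Trappc2b (adjusted p = 0.164), -0.28 for Atp5mk (0.35) and -0.61 for Sub1 (0.283), none of them called.

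Ephx2, the soluble epoxide hydrolase that breaks down fatty acid epoxides, differed in an uneven way between rats. It read 5.59, 5.85, 5.30, 4.64 and 5.11 on casein and 1.74, 2.17, 2.43, 2.04 and 4.82 on the 3:1 diet. Replicates 1 to 4 of the 3:1 diet were far below all casein rats, while replicate 5 lay within the casein range. The difference was -2.65 (SE 0.52, adjusted p = 0.0617), not called. On the 1:1 diet the rats read 4.76, 4.90, 5.27, 4.69 and 5.97, and on conventional soybean 4.62, 4.15, 5.30, 2.03 and 4.23.

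Genes of fatty acid synthesis and of NADPH supply mostly lay lower on the 3:1 diet, though none was called. Of 24 measured members, 21 lay below 0 and the median difference was -0.55, against a median of 0.01 over all 13462 genes, of which 46.2% lay below 0. At an unadjusted p under 0.05, 14 members lay lower and 2 higher. Over all genes that mark was passed by 435 lower (3.23%) and 711 higher (5.28%). On the same scale the list's median was -0.79 on the 1:1 diet, where 12 members were called (2.53% of all genes were), and -0.84 on conventional soybean, where 12 were called (1.86% of all genes). This list, like the others, was chosen with earlier results of these data known. Some members, such as Pnpla3, Elovl6, Fads2 and Pgd, had been marked before on the same casein rats. The list counts beside the shares of all genes are therefore a description.

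Among the enzymes that make palmitate, Acss2 and Acly, which supply acetyl-CoA, differed from casein by -0.80 (SE 0.18, adjusted p = 0.119) and -0.94 (adjusted p = 0.569). Acaca and Acacb, the acetyl-CoA carboxylases, differed by -1.07 (SE 0.27, adjusted p = 0.178) and -0.44 (adjusted p = 0.26). Fasn, the fatty acid synthase, differed by -1.42 (SE 0.53, adjusted p = 0.471). Acss2 read 6.02, 6.61, 6.40, 6.62 and 6.46 on casein and 5.77, 5.48, 6.08, 4.90 and 5.87 on the 3:1 diet, and the groups met in that a casein rat, replicate 1, lay below the highest 3:1 rat. For NADPH, Pgd of the pentose phosphate pathway read 5.78, 6.28, 6.36, 6.45 and 6.29 on casein and 5.40, 5.40, 5.81, 4.57 and 5.34 on the 3:1 diet (-0.93, SE 0.20, adjusted p = 0.119). Me1, the malic enzyme, differed by -1.37 (SE 0.46, adjusted p = 0.403).

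Elovl6, the elongase that lengthens palmitate to stearate, read 3.85, 4.80, 5.53, 5.12 and 4.88 on casein and 3.48, 3.23, 3.95, 1.59 and 2.84 on the 3:1 diet. The lowest of the casein rats, replicate 1, lay below the highest 3:1 rat, and the difference was -1.82 (SE 0.47, adjusted p = 0.208). The desaturases differed by -0.68 for Fads2 (adjusted p = 0.295), -0.47 for Fads1 (0.471) and -0.56 for Scd (0.58). Of these, Fads2 was without overlap, at 6.79, 7.23, 7.31, 7.03 and 7.29 on casein and 6.17, 6.62, 6.76, 6.05 and 6.65 on the 3:1 diet. Elovl5, another elongase, was the other of 2 members that lay lower with no overlap (-0.24, adjusted p = 0.67), where 107 of 13462 genes (0.795%) did so. Pnpla3, a lipase of lipid droplets, read 7.98, 7.38, 8.69, 8.05 and 8.74 on casein and 6.44, 7.06, 7.74, 2.86 and 6.77 on the 3:1 diet. Its difference of -1.996 (SE 0.94, adjusted p = 0.606) went with a value of replicate 4 far below the other 3:1 rats. The other 2 probe sets of the gene differed by -2.02 and -2.04. On the 1:1 and conventional soybean diets the Pnpla3 difference was -5.04 and -3.69. Gpam, which catalyses the entry step of glycerolipid assembly, lay the other way, at 0.67 (adjusted p = 0.468), and so did Agpat2, the next enzyme of that route, at 0.28.

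**Figure D2:**
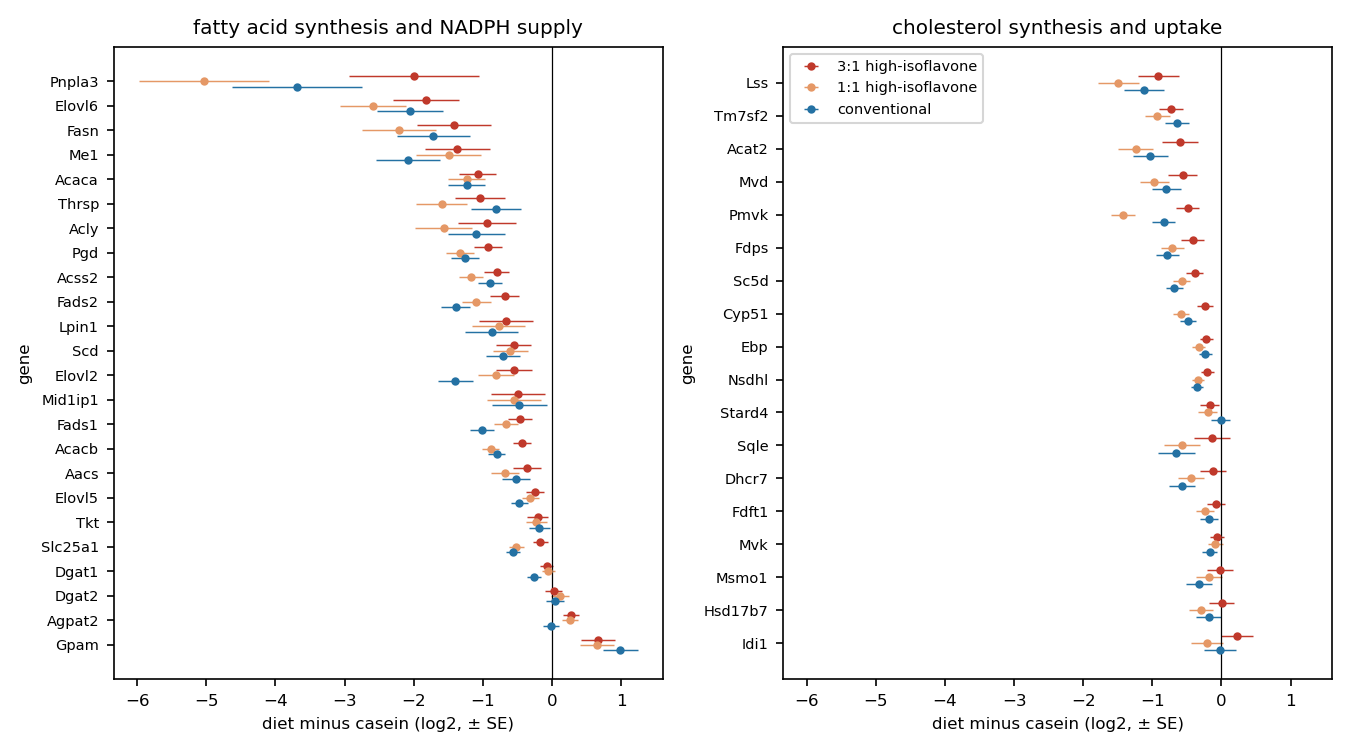
Difference from casein (log2) of each measured member of the lists of fatty acid synthesis and NADPH supply and of cholesterol synthesis and uptake on 3 diets; points are fitted differences and whiskers their SE (n = 5 per diet). The 3:1 values mostly lie between 0 and the 1:1 values, and Gpam lies above 0 on all 3 diets; the diets share the casein rats.

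Single rats weighed heavily on this list. Replicate 4 of the 3:1 diet had the lowest value of its group for 19 of 24 members, with a list mean of 4.99, while the other 3:1 rats had list means of 5.72 to 6.04. Casein replicate 1 was the lowest casein rat for 18 of 24 members, with a list mean of 5.89 against 6.21 to 6.53 in the others. Casein replicate 1 thus lay within the range of the 3:1 rats. The count of 14 members lower at an unadjusted p under 0.05 was 9 without 3:1 replicate 4, 9 without both arrays of higher floor, 10 without casein replicate 3 or 5, and reached 16 after centring and scaling. Its median stayed between -0.69 and -0.48 over 19 settings. No source used here states the food intake or fasting state of single rats.

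**Figure D3:**
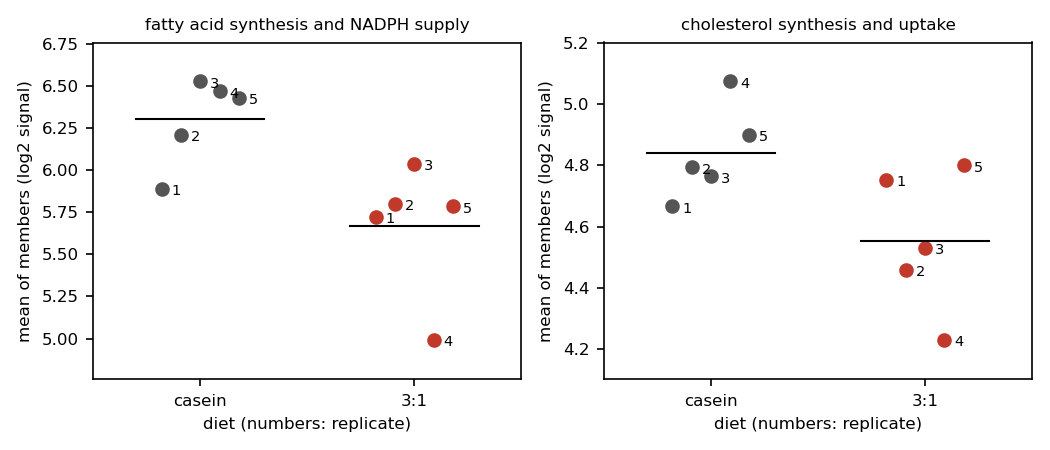
Mean signal (log2) over the 24 members of fatty acid synthesis and NADPH supply and over the 18 members of cholesterol synthesis and uptake in each rat of the casein and 3:1 diets, with the replicate number beside each point and a line at the group mean. In both lists 3:1 replicate 4 is the lowest rat, and casein replicate 1 has the lowest list mean of its group.

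Cholesterol synthesis and uptake showed smaller differences in the same direction. Of 18 measured members 16 lay below 0, 9 at an unadjusted p under 0.05 and none higher, with a median of -0.21 and 0 called. The medians were -0.51 on the 1:1 diet and -0.53 on conventional soybean. Tm7sf2, a sterol reductase, read 5.57, 5.56, 5.63, 6.03 and 6.07 on casein and 5.05, 4.76, 5.03, 5.12 and 5.25 on the 3:1 diet with no overlap (-0.73, SE 0.17, adjusted p = 0.158). Lss, which closes the sterol rings, read 4.28, 4.79, 4.11, 5.07 and 4.31 and 3.91, 3.82, 3.34, 2.90 and 4.02, also with no overlap (-0.91, SE 0.29, adjusted p = 0.341). Of the mevalonate steps, Pmvk, Mvd and Fdps differed by -0.49, -0.56 and -0.42. Sqle, the squalene epoxidase, differed by -0.14 (SE 0.26), and Idi1, which isomerises isopentenyl diphosphate, by 0.23 (SE 0.23). Replicate 4 of the 3:1 diet was the lowest of its group for 12 of 18 members, and without it 4 members lay lower at an unadjusted p under 0.05 in place of 9. Without casein replicate 4 there were 5.

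The regulators of these pathways showed few differences in their own messenger RNA. Of 14 measured lipid regulators, 1 lay higher and 1 lower at an unadjusted p under 0.05. Scap, the sterol sensor that escorts SREBP proteins, differed by -0.31 (SE 0.10, adjusted p = 0.308) with no overlap, and Pparg, a receptor that drives fat storage, by 0.60 (SE 0.19, adjusted p = 0.341). Srebf1 differed by -0.39 (SE 0.29, adjusted p = 0.801), Srebf2 by 0.03 (SE 0.11) and Mlxipl, which encodes ChREBP, by -0.22 (SE 0.16). Insig1, which holds SREBP proteins back, differed by -0.27 (SE 0.50), against -1.63 on the 1:1 diet.

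Of 9 measured fatty acid binding genes, Fabp2 was the 1 called, where 0.0594% of all genes were. At an unadjusted p under 0.05, 4 lay lower and 0 higher, where 3.23% and 5.28% of all genes did. Fabp2 and Fabp5 had been marked by an earlier analysis on the same casein rats, so these shares are a description. The list median was -0.05 and ranged from -0.24 to -0.03 over 19 settings. Fabp5, the epidermal type, read 6.71, 7.61, 6.85, 7.61 and 7.23 on casein and 5.77, 6.18, 6.67, 4.53 and 6.23 on the 3:1 diet, with no overlap (-1.33, SE 0.32, adjusted p = 0.159). Dbi, which binds acyl-CoA, differed by -0.49 (SE 0.16, adjusted p = 0.394) and Fabp1, the main type in liver, by -0.24 (SE 0.11, adjusted p = 0.573). Fatty acid oxidation and ketogenesis gave a median of -0.02 over 25 members, none at an unadjusted p under 0.05. In glucose metabolism 4 of 20 members lay lower and 1 higher at that mark. The higher member was Ugp2, and the lower ones were Eno1 (-0.27), Ldha (-0.20), Pklr, the liver pyruvate kinase (-0.55, SE 0.15, adjusted p = 0.247, and -0.98, adjusted p = 0.115, at a dimmer probe set), and Pfkfb1, which sets the level of a fructose bisphosphate that drives glycolysis (-0.64, SE 0.17, adjusted p = 0.219, no overlap).

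Several cytochrome P450 and conjugation genes lay higher on the 3:1 diet, and again none was called. Of 13 measured male-predominant liver genes, 10 lay above 0, with a median of 0.19. At an unadjusted p under 0.05, 5 lay higher and 0 lower. Over all genes 5.28% lay higher and 3.23% lower at that mark, which applies to the list counts that follow as well. Cyp2c13, a steroid hydroxylase of male rats, read 8.17, 8.18, 8.49, 7.83 and 7.95 on casein and 8.53, 8.83, 8.66, 8.96 and 8.55 on the 3:1 diet, with no overlap (0.58, SE 0.13, adjusted p = 0.122). Mup5, a major urinary protein, was also without overlap (0.53, SE 0.14, adjusted p = 0.192), and its probe set may read other genes of that family. Cyp2c11, the main male-specific P450, differed by -0.16 (SE 0.12), on the other side of 0. The others of the 5 were Hsd3b5, a steroid dehydrogenase, at 0.55, Stac3 at 0.76 and Cyp3a2 at 0.85. Of 11 female-predominant genes, 9 lay above 0 with a median of 0.21, so the medians of both lists were alike. At that mark 1 lay higher, Atp2b2, a calcium pump (0.60).

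Of 19 measured targets of the xenobiotic receptors PXR and CAR, 5 lay higher and 0 lower at an unadjusted p under 0.05, with a median of 0.10. They were Cyp3a23-3a1, Cyp3a2 and Cyp3a18, P450 enzymes that oxidise drugs and steroids, the glutathione transferase Gstm1 and the uptake transporter Slco1a4, at 0.55, 0.85, 0.67, 0.33 and 0.66. Cyp3a2 also stands in the male-predominant list and Gstm1 in the glutathione list, so the counts share these genes. For Slco1a4 replicate 4 of the 3:1 diet read 6.42, far above the other 4 rats, which lay within or beside the casein range. The count of 5 was between 2 and 5 over 18 settings. Alas1, the first enzyme of heme synthesis, differed by -0.32, and Nr1i3, the gene of CAR itself, by 0.17, against 1.20 on the 1:1 diet.

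In the list of glutathione genes and targets of the antioxidant factor NRF2, 5 of 28 lay higher and 1 lower at an unadjusted p under 0.05, and 4 lay higher with no overlap (199 of 13462 genes did so, 1.48%). The count of 5 was between 4 and 8 over 18 settings, with 8 without casein replicate 4. Gclm, the modifier subunit of the enzyme that makes the glutathione precursor, read 3.65, 4.09, 3.91, 3.48 and 3.91 on casein and 4.31, 4.77, 4.65, 4.96 and 4.24 on the 3:1 diet (0.78, SE 0.18, adjusted p = 0.151). Gstm3, a glutathione transferase, read 1.79, 1.53, 2.02, 2.75 and 2.70 and 3.295, 3.04, 2.99, 3.88 and 3.12 (1.11, SE 0.26, adjusted p = 0.151). On the 1:1 diet the Gstm3 difference was 0.16, and 3:1 minus 1:1 was 0.95 (adjusted p = 0.464). Ephx1, the microsomal epoxide hydrolase, differed by 0.60 (SE 0.18, adjusted p = 0.288). Gstm1 and Gstm4 were the other 2 higher members, and Akr7a2, an aldehyde reductase, was the lower member, at -0.30. Hmox1 and Slc7a11, classic NRF2 targets, lay on the other side of 0, at -0.22 and -0.42. Probe sets of glutathione transferases of the mu class may read each other's messenger RNA.

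Among sulfotransferase and glucuronidation genes 3 of 16 lay higher and 2 lower at that mark, where 5.28% and 3.23% of all genes did. Sult1c2a and Sult2a6, which attach sulfate, differed by 1.35 (SE 0.32, adjusted p = 0.152) and 0.97, Sult1a1, the main phenol sulfotransferase, by -0.30, and the brain-type sulfotransferase Sult4a1 by -1.06 (SE 0.21, adjusted p = 0.0675). The latter had no overlap, at 2.63, 3.20, 3.76, 3.78 and 3.40 on casein and 2.18, 2.46, 2.32, 2.09 and 2.40 on the 3:1 diet. Ugp2, which makes UDP-glucose, the source of UDP-glucuronate, differed by 0.73 (adjusted p = 0.34). Cyp1a2, a target of the aryl hydrocarbon receptor, read 7.20, 7.33, 7.17, 7.45 and 6.93 on casein and 6.52, 6.17, 6.17, 6.58 and 6.81 on the 3:1 diet, with no overlap (-0.76, SE 0.29, adjusted p = 0.497), and was the 1 member of 10 in its list past an unadjusted p of 0.05.

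Estrogen receptors and estrogen-responsive liver genes, the list closest to the receptor action of isoflavones, had 1 of 19 members higher and 0 lower at an unadjusted p under 0.05, with a median of 0.10. That member was Agt, which encodes angiotensinogen (0.27, SE 0.09, adjusted p = 0.333). The estrogen receptor gene Esr1 was not measured, and neither were Gper1, Pgr and Cyp7b1 of this list. Metallothioneins and carbonic anhydrases had 4 of 15 higher and 2 lower at that mark, where 5.28% and 3.23% of all genes were, and Car3 and Car8 were the 2 called, where 0.0594% of all genes were. The other higher members were Car14, at 0.40, and the metal exporter Slc30a10, at 0.34, and the lower ones Car7, at -0.38, and the zinc importer Slc39a4, at -0.47. Car3, Mt1 and Mt2A had been marked by an earlier analysis on the same casein rats, so the shares of this list are a description. The metallothionein genes Mt1 and Mt2A, which bind zinc and copper, differed by 0.48 (SE 0.27) and 0.28 (SE 0.53), against 1.26 and 1.75 on the 1:1 diet. Replicate 4 had the highest Mt1 and Mt2A values of the 3:1 rats, at 4.37 and 4.14.

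Genes of amino acid handling lay on both sides of casein, with medians near 0 and 0 called. In methionine, transsulfuration and taurine metabolism 5 of 21 lay higher and 3 lower at an unadjusted p under 0.05. Over all genes 5.28% lay higher and 3.23% lower at that mark. Higher were Mat1a, which makes S-adenosylmethionine (0.22), Cbs and Cth, the enzymes of transsulfuration (0.41 and 0.23), Csad, which makes the precursor of taurine (0.97, SE 0.26, adjusted p = 0.233), and Gclm. Lower were Bhmt and Bhmt2, which remethylate homocysteine with donors such as betaine (-0.74 and -0.16), and Chdh, which makes betaine from choline (-0.31). Of 33 genes of amino acid breakdown and the urea cycle 4 lay higher and 3 lower. The former were Hal, Kmo, the kynurenine hydroxylase of tryptophan breakdown (0.40, SE 0.11, adjusted p = 0.239), Aass of lysine breakdown (0.33) and Gpt2, a mitochondrial alanine aminotransferase (0.28). The latter were the aminotransferases Gpt and Got1 (-0.72 and -0.43) and Ass1 of the urea cycle (-0.42). The amino acid response had 1 of 27 higher, Gpt2, and 1 lower, the stress gene Nupr1 (-0.44). In bile acid genes 2 of 14 lay higher, the phospholipid exporter Abcb4 (0.47) and Baat, which joins bile acids to taurine and glycine, at 7.77, 7.55, 7.64, 7.69 and 7.61 on casein and 8.01, 8.03, 7.96, 8.53 and 8.16 on the 3:1 diet, with no overlap (0.48, SE 0.10, adjusted p = 0.106).

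The remaining lists had few members at an unadjusted p under 0.05, and those are named here. Over all genes 5.28% lay higher and 3.23% lower at that mark. Of 19 genes of the growth hormone and IGF axis, Igf1 and Igfals, the growth factor and its serum carrier, lay higher (0.33 and 0.36), and Igf2 and the receptor gene Igf1r lower (-0.19 and -0.47). Of 23 genes of endoplasmic reticulum stress the chaperone genes Hyou1 and Dnajc3 and the degradation gene Sel1l lay higher (0.43, 0.23 and 0.39). Of 21 acute phase genes Crp, Fga and Hpx lay higher (0.54, 0.22 and 0.11) and Lcn2 lower (-0.56). Of 19 lipoprotein genes Apoc1 and Apoc3, small apolipoproteins, lay higher (0.20 and 0.15) and Lipc, the hepatic lipase, lower (-0.26). The lower 3 of 17 thyroid hormone genes were Me1, Thrsp, a lipogenic nuclear protein (-1.04), and Gpd2, a mitochondrial glycerol phosphate dehydrogenase (-0.57), and the higher 1 of 26 cell cycle genes was Kif11, a spindle motor (0.72). The lists of the circadian clock, insulin signalling and the interferon response had no member at an unadjusted p under 0.05, although 22 of 26 interferon genes lay below 0, with a median of -0.17. Over the 27 gene lists the medians ran from -0.55 to 0.21.

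**Figure D4:**
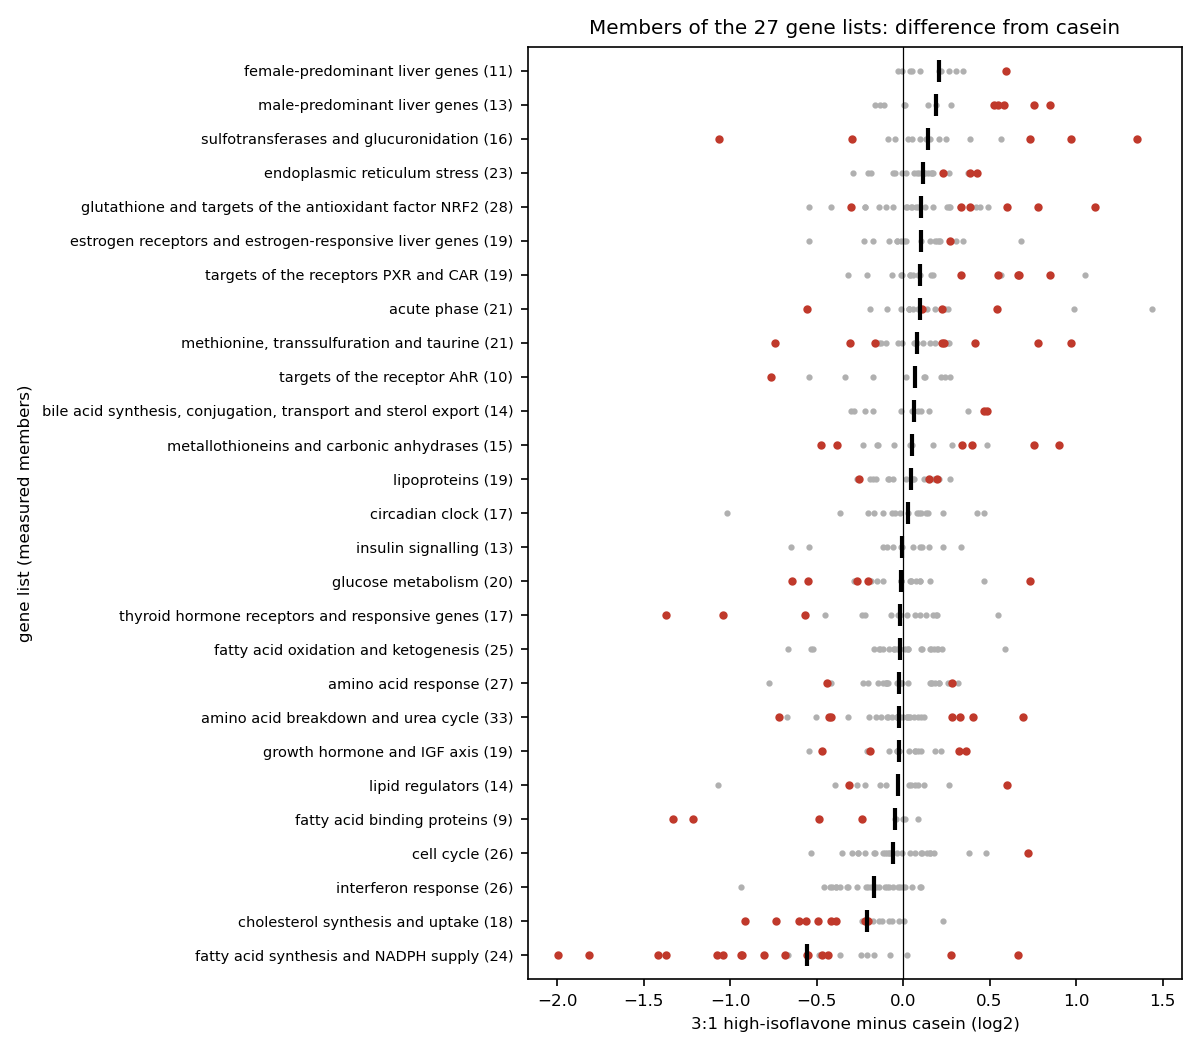
Difference between the 3:1 and casein diets (log2) for each measured member of the 27 gene lists; red points have an unadjusted p under 0.05 in limma, grey points do not, and black bars mark list medians, with the number of measured members in brackets. Fatty acid synthesis and NADPH supply has the lowest median (-0.55), and most other medians lie near 0.

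Markers of other liver cells gave little that moved with the diet. None of the 11 macrophage, 9 endothelial, 12 lymphocyte or 4 red blood cell markers reached an unadjusted p under 0.05, with medians of -0.07, 0.04, 0.08 and -0.12. Of 7 bile duct markers, Krt19 lay higher (1.01, adjusted p = 0.284) and Epcam lower (-0.63, adjusted p = 0.181), at the 30.6th and 41.0th percentiles of mean signal. Of 11 stellate cell markers Des lay higher (0.35) and Dcn lower (-0.43), and of the markers of neutrophils and pancreas Camp of 4 (0.55) and Cpb1 of 10 (0.28) lay higher. No marker of another cell type was called.

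The lower share of high-isoflavone soybean was next set against the higher share, 3:1 against 1:1. No casein values enter the difference itself, but the fit pools the spread between rats over all diets. The casein rats therefore bear on the intervals and p-values of this comparison. Of 27702 probe sets 0 were called (0%), the lowest adjusted p was 0.368, and 2000 had an unadjusted p under 0.05. Leaving out 3:1 replicate 4 or 5 gave 1 call each. For the called genes the interval of 3:1 minus 1:1 was 0.04 to 0.44 for Cox7b2, 0.13 to 0.73 for Cox7b, 0.11 to 0.86 for Fabp2, -0.53 to -0.05 for Ddah1, -0.36 to 0.68 for Wfdc21, -0.47 to 0.21 for Car3, -0.17 to 0.38 for Car8 and -0.19 to 0.31 for Slc6a13 (log2, 95%, not adjusted for many genes). So Cox7b2, Cox7b, Fabp2 and Ddah1 were further from casein at the higher share by this unadjusted interval, while the intervals of the other 4 span 0. The remaining probe sets called against casein were that of Eprs1, 1383838_at and 1391961_a_at. In 3:1 minus 1:1 they differed by 0.25, -0.11 and -0.27, none called. Of the 24 fatty acid synthesis genes, 22 were higher on the 3:1 than on the 1:1 diet (median 0.23), as were all 18 cholesterol genes (median 0.30). Over all genes 53.9% lay below 0 in this comparison.

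The smallest p-values of 3:1 minus 1:1 belonged to genes named here after their values were seen. Pmvk, the phosphomevalonate kinase, read 4.82, 4.76, 4.997, 3.98 and 4.76 on the 3:1 diet and 3.93, 3.46, 3.76, 3.40 and 4.09 on the 1:1 diet (0.94, interval 0.58 to 1.29, adjusted p = 0.368). Ddhd1, a phospholipase, differed by 1.22 (0.74 to 1.70), Mgmt, a DNA repair protein, by 0.75 (0.41 to 1.08), and Orm1, an acute phase protein, by -0.74 (-1.07 to -0.42). Ephx2 differed by -2.48 (-3.56 to -1.40) in the mean. As given above, most but not all 3:1 rats read low, and so did a conventional soybean rat. The gene thus varied strongly between rats of the same diet. None was called. Among 44 genes marked by the earlier analysis of all diets, 3 were called against casein and 36 had an unadjusted p under 0.05. These genes were chosen on the same casein rats, so the counts are a description.

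**Figure D5:**
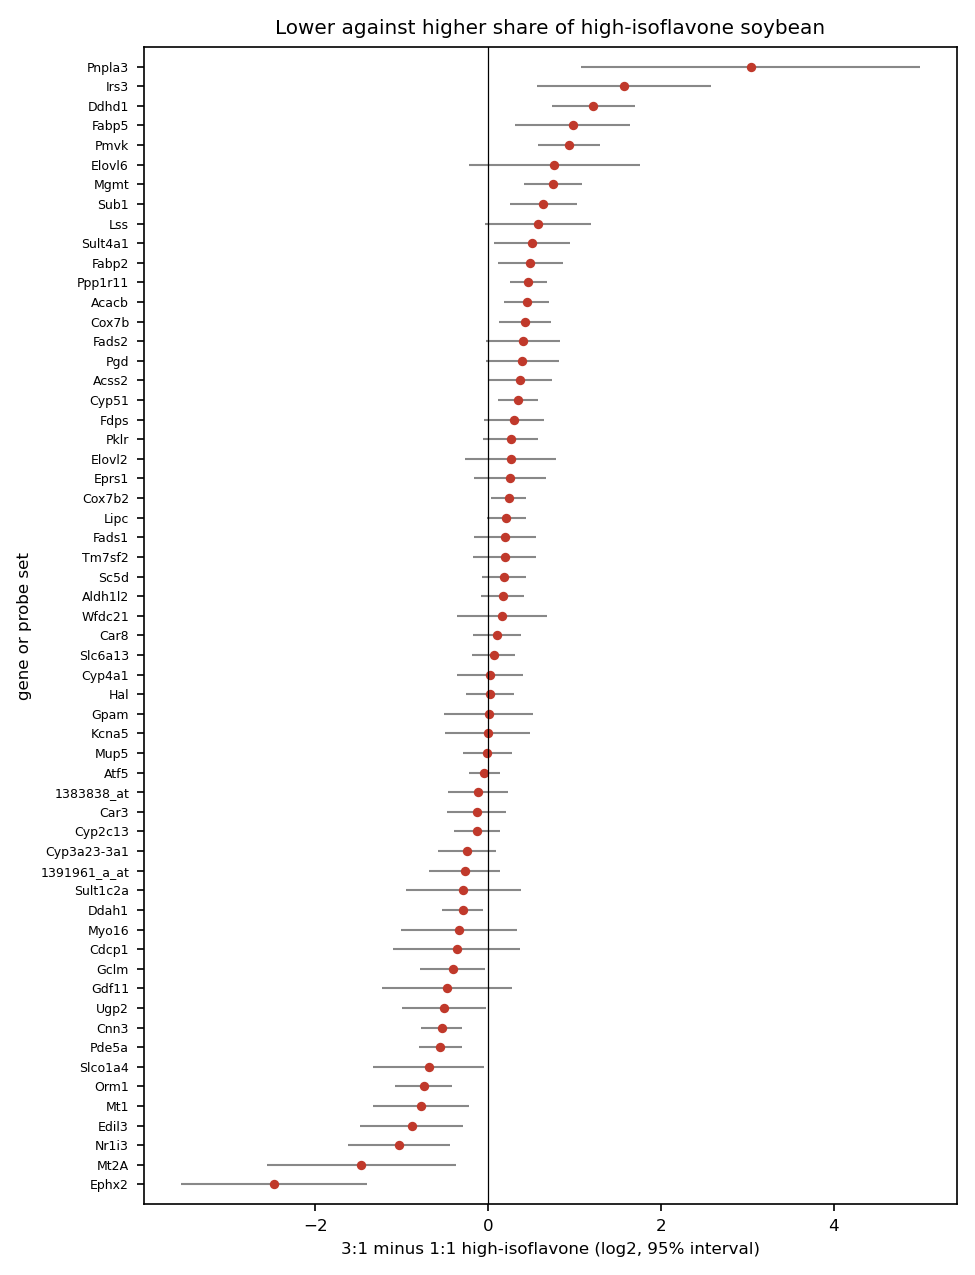
Difference between the 3:1 and 1:1 high-isoflavone diets (log2, points) with 95% intervals that are not adjusted for many genes, for 58 genes or probe sets: those called against casein, those marked by the earlier analysis and those of smallest p. None passed the adjusted threshold; Pnpla3 has the widest interval, 1.08 to 5.00.

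Against conventional soybean, given in equal parts with casein, 1 of 27702 probe sets was called (0.00361%), that of Cox7b2. The 3:1 diet differed by -0.67 on the log2 scale (interval -0.87 to -0.47, adjusted p = 0.0241), and no 3:1 rat overlapped a conventional soybean rat. Share of soybean and cultivar differ together here. The call of Cox7b2 ended in 11 of 18 settings, among them the omission of conventional soybean replicate 1, 2, 4 or 5 or of 3:1 replicate 3, 4 or 5, and quantile normalization gave 9 calls and centring and scaling 13. Cox7b differed by -0.61 (interval -0.91 to -0.32, adjusted p = 0.194) and Slc6a13 by 0.46 (0.21 to 0.71, adjusted p = 0.247). For Fabp2, Wfdc21 and Car3 the difference was 0.21 (-0.16 to 0.59), 0.05 (-0.48 to 0.57) and -0.26 (-0.60 to 0.08), none called.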

How the data were processed

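RNA of 20 rat livers was hybridised to an Affymetrix rat array. The authors deposited 1 table, normalized with the SuperNORM data service per the labels, with no statement on probe summarization in the sources used here. No label states the scale, and log10 was inferred for the deposited values from the spike-in controls (slope 0.997, SD 0.0242 over 20 arrays), so that multiplication by 3.3219 gave log2 values.

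Of 31099 probe sets, 57 controls and 3342 without values were left out, 2 being both. Of the 27702 tested, 19147 had 1 gene symbol in the platform annotation, 404 several and 8151 none. For 13462 genes the probe set with the highest mean stood for the gene.

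Differences were tested two-sided with limma 3.58.1 in R 4.3.3, with 1 mean per diet over all 20 arrays, eBayes with a trend and Benjamini-Hochberg adjustment over all probe sets. The method was tested on simulated data. No array pair was identical.

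The members, 38 lists (27 of genes, 11 of cell markers; 568 of 665 symbols measured) and tests were chosen with earlier results of these data known. Named were the called probe sets, genes filling each direction to 6 by p, 44 genes of the earlier analysis and called members, or else the 2 of smallest p, per list; other names were chosen after their values were seen. Alternatives were quantile normalization, centring and scaling, a dim filter, no trend, a replicate block, omissions of arrays and a fit of the compared arrays alone. Promoters came from RefSeq (GRCr8).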

Additional observations from a re-analysis of the deposited data

Results flagged for a closer look

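In Car8 the highest rat of the 3:1 diet, replicate 4, read 5.37 and stood apart from the other 4 rats of its group, which read 4.68 to 4.73. Of 30 groups of 5 rats examined in 15 features, this was the 1 with such a gap, and chance marks about 1 in 20 groups. For Cox7b2 the 3:1 diet lay -0.67 from conventional soybean on the log2 scale by a direct test (adjusted p = 0.0241). In 11 of 18 settings this was no longer called.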

How the results depend on the processing

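The 11 calls of the 3:1 diet against casein became 7 after quantile normalization, 6 after centring and scaling, 3 without a trend in eBayes, 4 without the 2 arrays of higher floor, 6 without number 1 of all 4 groups and 5 in a fit of the 10 compared arrays alone; the cause was not tested. Without the dimmest 25% of probe sets there were 14. Omission of single arrays gave 1 to 26. The 0 calls of 3:1 minus 1:1 stayed 0 under the settings without omission of a single array and were 0 to 1 with it. The 1 call of 3:1 minus conventional soybean became 9 after quantile normalization, 13 after centring and scaling, 2 without the 2 arrays of higher floor and 0 without a trend, without number 1 or in the 10 compared arrays alone, with 0 to 2 on omission of single arrays. With the replicate number as a block the counts were 23, 0 and 0. Whether the numbers pair the rats was not settled. Between the casein and 3:1 rats, same-numbered residuals correlated between -0.082 and 0.223, and 4 of 10 arrays were closest to their own number. Each array had 5 candidates, so some match their own number by chance, and the other diets were not compared in this way. Of 269 values of 15 named features under these settings, 0 changed sign, 105 lost their call and 8 gained one. Of 722 list medians, 22 moved by more than the spread between rats. The deposited normalization, the inferred log base and 5 rats per diet limit these values.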
